A study of Mus musculus with 24 samples.

Results

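The male part of a mouse kidney study was described across all genes: 6 libraries from mice given cisplatin against 6 from mice given saline. A gene was taken up where at least 6 of these 12 libraries held 10 or more counts, which 16712 of the 55416 gene identifiers in the count table did, and those genes carried between 99.7% and 99.9% of the counts of each library. All mice behind these libraries were C57BL/6 males of 9 to 10 weeks, a common inbred laboratory strain. Each received 1 intraperitoneal injection in 100 µl, either saline alone or cisplatin in saline at 15 mg/kg, and tissue was taken 72 h later from the inner medulla, snap frozen and sequenced after poly(A) selection. The whole series holds 24 libraries, the other 12 being 7 female saline and 5 female cisplatin libraries. The labels do not say whether a library is 1 mouse or a pool, so the p-values below measure the spread between libraries.

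Cisplatin is a platinum compound used against tumours. It binds DNA, forms adducts that stall transcription and replication, and injures the kidney tubule, which takes it up from the blood. The inner medulla is the innermost kidney zone, where collecting ducts and thin limbs run through an interstitium rich in matrix and lipid-laden interstitial cells, and where water is recovered from the urine. The injury proteins most often measured in urine and blood are left aside here, and the account goes over the remaining genes and over 76 gene classes defined by symbol.

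The identity of the tissue was checked with marker genes. The markers of the inner medullary collecting duct (10 genes, among them the water channels Aqp2 and Aqp4) summed to between 11484 and 13507 CPM in saline libraries and between 8503 and 12725 CPM in cisplatin libraries. CPM is the read count relative to the library size. Sums over a marker list use the library total alone, whereas CPM of single genes are also scaled by TMM. Those of the thin limbs (8 genes) summed to 5940 to 7464 and 5573 to 7157 CPM. Markers of the proximal tubule, which lies outside the inner medulla, summed to 199.7 to 1122 CPM in saline and 69.0 to 1058 CPM in cisplatin libraries. Those of the thick ascending limb (6 genes), another neighbouring segment, summed to 2668 to 13396 CPM in saline and 1536 to 7628 CPM in cisplatin libraries. The highest of these saline sums lay within the saline range of the collecting duct list. The RNA of these markers therefore varied within both groups. Whether the amount of neighbouring tissue or its RNA per cell differed was not tested. Library totals ran from 18188482 to 27279102 counts.

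The cisplatin libraries were spread out, and 2 of them stood apart. On the first principal component of the 500 most variable genes, with 60.7% of the variance, saline libraries lay between -22.3 and -15.5 and cisplatin replicates 1, 2, 3, 4 and 5 at 33.8, 39.6, 31.0, 6.22 and 17.4, while cisplatin replicate 6 lay at -8.43, nearer to saline than any other. Cisplatin replicate 5 was alone on the second component (15.1% of the variance), at -33.3 where the other 11 libraries lay between -9.06 and 12.8. The median SD of log2 CPM over all genes was 0.18 among saline and 0.38 among cisplatin libraries, and 85.6% of genes varied more among cisplatin libraries. Results that lean on replicate 5 or 6 are given with and without it.

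Cisplatin changed RNA levels of many genes, and more rose than fell. Of the 16712 genes, 1554 (9.3%) were higher and 893 (5.34%) lower at a Benjamini-Hochberg adjusted p under 0.05 in edgeR's quasi-likelihood test, together 14.6%, and "called", "rose" and "fell" below mean that threshold. The median log2 fold change of called genes was 0.80 for those higher and -0.80 for those lower, against 0.02 over all genes. At least 2-fold changes were called in 564 genes upward (3.37%) and 320 downward (1.91%). All 6 cisplatin libraries lay above all 6 saline libraries in 604 genes (3.61%) and below them in 436 (2.61%), and 540 (3.23%) and 351 (2.1%) of these were also called. In a fit of all 24 libraries the male contrast gave 2290 higher (13.7%) and 1357 lower genes (8.12%). The number called depended on single libraries: without cisplatin replicate 6 it was 2402 higher and 1838 lower, and without cisplatin replicate 2 it was 873 and 344. Without each saline library in turn the counts were 882 and 400, 1021 and 641, 960 and 503, 852 and 360, 901 and 414, and 994 and 511 for replicates 1 to 6. With the mean log2 CPM of markers of 2 neighbouring tubule segments (the proximal tubule and the thick ascending limb) as a covariate, which was lowest in cisplatin replicates 1 and 2, 364 genes (2.18%) were higher and 84 (0.503%) lower, 433 of these 448 being among the genes called without it. This score ran from 4.25 to 5.77 in saline and from 2.76 to 5.33 in cisplatin libraries, and it includes Egf, which itself fell. The covariate is thus partly tied to treatment. For a call lost with it, a tubule difference and an effect of cisplatin cannot be told apart.

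Each library was also read with genes called from the remaining 11. Of the genes called higher without it, cisplatin replicates 1 to 6 held 90.6%, 97.5%, 90.6%, 77.2%, 77.7% and 34.4% above the range of the saline libraries. Of those called lower, the shares below that range were 86.6%, 97.1%, 79.0%, 64.4%, 79.0% and 31.2%. For saline libraries, each set against the other 5, the shares ran from 14.7% to 29.0% and from 11.8% to 47.1%. Cisplatin replicate 6 lay above every saline library in the first share and within their range in the second, and the other 5 cisplatin libraries lay above them in both.

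**Figure D1:**
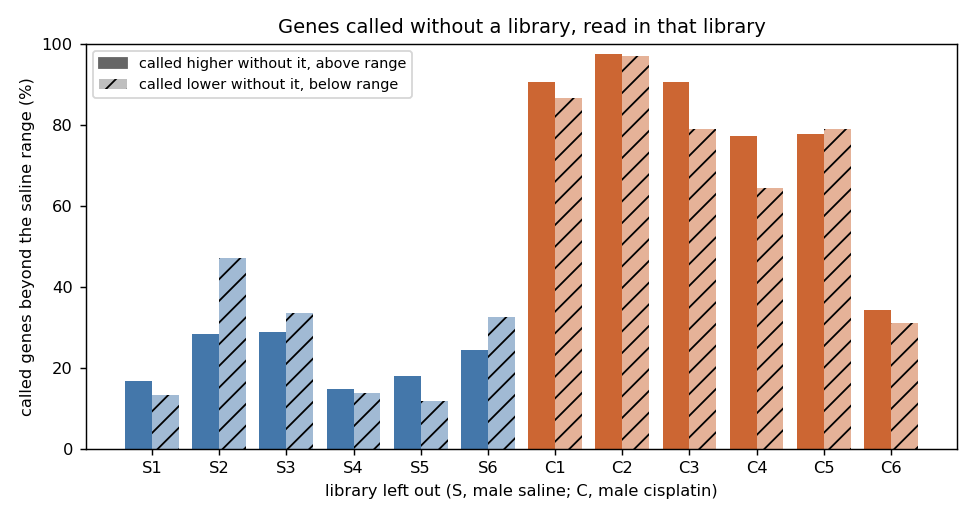
Bars give, for each male library left out of the fit (x axis), the percentage of genes called higher (solid) or lower (hatched) without it that lie above or below the saline range in it. Cisplatin replicates 1 to 5 hold between 64.4% and 97.5% and replicate 6 holds 34.4% and 31.2%, against at most 47.1% in a saline library. The shares over all genes, not drawn, are 15.6% to 37.7% in cisplatin and 10.9% to 26.1% in saline libraries.

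A list of well-known injury genes (Trpv6 and Egf among them), the hemoglobin genes with Alas2, and provisional gene models named Gm with a number or ending in Rik were set aside for the ranking by fold change. Of the remaining genes without overlap and with a mean of at least 5 CPM, the 12 with the largest rises were named, and 8 of them are given here in full. In what follows, levels in CPM are the lowest, the median and the highest of the 6 libraries. Oas2, an oligoadenylate synthetase of the antiviral response on chromosome 5, was at 5.01, 5.68 and 7.37 CPM in saline and 9.95, 90.0 and 229 CPM in cisplatin libraries. Its fold change was 19.9 (log2 fold change 4.31 ± 0.56 SE, adjusted p = 0.00105), and every cisplatin library exceeded every saline library, replicate 6 by the smallest margin at 9.95 CPM. Prtn3 encodes a serine protease known from neutrophil granules and lies on chromosome 10. Its level was 0.311, 0.501 and 0.738 CPM in saline and 2.34, 8.97 and 25.9 CPM in cisplatin libraries, a 20.95-fold difference (log2 fold change 4.39 ± 0.54 SE, adjusted p = 0.000754). It overlaps Plppr3 on the opposite strand, whose mean was 12.03 CPM in saline and 26.6 CPM in cisplatin libraries (log2 fold change 1.15 ± 0.21 SE, adjusted p = 0.00548), and without the strand setting of the counting reads of both cannot be told apart. Cuzd1, on chromosome 7, encodes a secreted protein with CUB and zona pellucida domains known from the pancreas. It was at 3.31, 4.44 and 4.83 CPM in saline and 14.6, 73.4 and 316 CPM in cisplatin libraries and 24.04-fold higher (log2 fold change 4.59 ± 0.57 SE, adjusted p = 0.000831). Its annotated span overlaps that of Fgfr2 on the same strand, a growth factor receptor gene that was not called (a mean of 144 CPM in saline and 187 CPM in cisplatin libraries, adjusted p = 0.139).

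Complement factor I, encoded by Cfi on chromosome 3, cleaves the activated complement proteins C3b and C4b. Its transcript was at 1.33, 2.20 and 3.20 CPM in saline and 7.32, 44.2 and 53.6 CPM in cisplatin libraries (17.2-fold, log2 fold change 4.10 ± 0.42 SE, adjusted p = 0.000172), without overlap. Socs3, on chromosome 11, encodes an inhibitor of cytokine receptors that signal through JAK kinases and STAT factors. It was at 8.70, 11.3 and 13.6 CPM in saline and 37.1, 135 and 255 CPM in cisplatin libraries, 12.2-fold higher (log2 fold change 3.61 ± 0.36 SE, adjusted p = 0.00013), and cisplatin replicate 6 at 37.1 CPM lay above the highest saline library. Slc2a6, on chromosome 2, encodes a sugar transporter of the GLUT family. Its levels were 2.49, 5.80 and 7.88 CPM in saline and 18.3, 79.9 and 130.01 CPM in cisplatin libraries (14.1-fold, log2 fold change 3.82 ± 0.41 SE, adjusted p = 0.000229), again with no overlap. Adgra1, an adhesion G protein-coupled receptor gene on chromosome 7, was at 4.87, 6.72 and 9.30 CPM in saline and 22.4, 86.1 and 141 CPM in cisplatin libraries (12.1-fold, log2 fold change 3.59 ± 0.37 SE, adjusted p = 0.000172), and Smoc2, which encodes a secreted matricellular protein and lies on chromosome 17, at 5.07, 6.59 and 7.20 CPM in saline and 8.11, 58.2 and 152 CPM in cisplatin libraries (10.7-fold, log2 fold change 3.42 ± 0.58 SE, adjusted p = 0.00418). The remaining 4 were Clca3a2, a chloride channel accessory gene (15.2-fold), Mybpc2, a myosin-binding protein gene known from fast skeletal muscle (13.53-fold), Lrg1, which encodes a secreted leucine-rich glycoprotein (10.6-fold), and the fucosyltransferase gene Fut2 (9.35-fold). With the tubule covariate, Lrg1 and Fut2 were no longer called (adjusted p = 0.0779 and 0.0784).

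Under the same exclusions the 12 largest falls ran from 3.04-fold to 6.50-fold, and several encode proteins of the extracellular matrix or of mesenchymal cells. The hemoglobin genes set aside fell further, with a log2 fold change of -5.35 for Hbb-bt, -5.21 for Hbb-bs, -4.97 for Hba-a1 and -4.32 for Hba-a2, all 4 without overlap. Ptgs2, on chromosome 1, encodes the inducible cyclooxygenase that makes prostaglandins in medullary interstitial cells. It was at 9.73, 18.5 and 33.6 CPM in saline and 1.15, 2.69 and 6.06 CPM in cisplatin libraries, 6.50-fold lower (log2 fold change -2.70 ± 0.42 SE, adjusted p = 0.00302), and no cisplatin library reached the lowest saline library. Cdh11, a cadherin gene of mesenchymal cells on chromosome 8, was at 15.8, 23.3 and 27.3 CPM in saline and 3.33, 5.19 and 10.4 CPM in cisplatin libraries (3.46-fold lower, log2 fold change -1.79 ± 0.27 SE, adjusted p = 0.00252). Svep1, on chromosome 4, encodes a large matrix protein and was at 42.4, 67.7 and 79.6 CPM in saline and 9.34, 16.7 and 39.3 CPM in cisplatin libraries (3.27-fold lower, log2 fold change -1.71 ± 0.31 SE, adjusted p = 0.0057). Coch, which encodes the matrix protein cochlin and lies on chromosome 12, was at 14.5, 16.3 and 22.9 CPM in saline and 1.64, 4.97 and 9.05 CPM in cisplatin libraries (3.28-fold lower, log2 fold change -1.71 ± 0.30 SE, adjusted p = 0.00513), again without overlap.

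Tnn, on chromosome 1, encodes a tenascin of the extracellular matrix. It was at 348, 397 and 479 CPM in saline and 17.1, 45.9 and 342 CPM in cisplatin libraries (4.18-fold lower, log2 fold change -2.06 ± 0.63 SE, adjusted p = 0.0414). Cisplatin replicate 6 held 342 CPM, just under the lowest saline library, and the call was lost in 12 of the 21 alternatives, among them leaving out any 1 library other than cisplatin replicate 6 (adjusted p up to 0.15). Cck, the gene of the hormone cholecystokinin on chromosome 9, was at 225, 255 and 314 CPM in saline and 25.2, 65.1 and 216 CPM in cisplatin libraries (3.11-fold lower, log2 fold change -1.64 ± 0.41 SE, adjusted p = 0.0209), with cisplatin replicate 6 at 216 CPM. Insrr, the insulin receptor-related receptor known as a sensor of alkaline pH, encodes a membrane protein. It was at 6.17, 10.3 and 15.5 CPM in saline and 1.49, 2.34 and 5.19 CPM in cisplatin libraries (3.84-fold lower, log2 fold change -1.94 ± 0.30 SE, adjusted p = 0.00292). Slc26a7, an anion exchanger gene on chromosome 4, was at 4.27, 9.49 and 13.1 CPM in saline and 2.29, 3.13 and 3.84 CPM in cisplatin libraries (log2 fold change -1.60 ± 0.24 SE, adjusted p = 0.00282). Neither overlapped between groups. The others were Nhlrc4 (3.77-fold lower), the sulfotransferase gene Ust (3.30-fold), the collagen gene Col12a1 (3.26-fold) and the ubiquitin ligase gene Hecw2 (3.16-fold). Ust, Col12a1, Hecw2 and Cck were not called with the tubule covariate (adjusted p = 0.0505, 0.0549, 0.0666 and 0.0889).

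**Figure D2:**
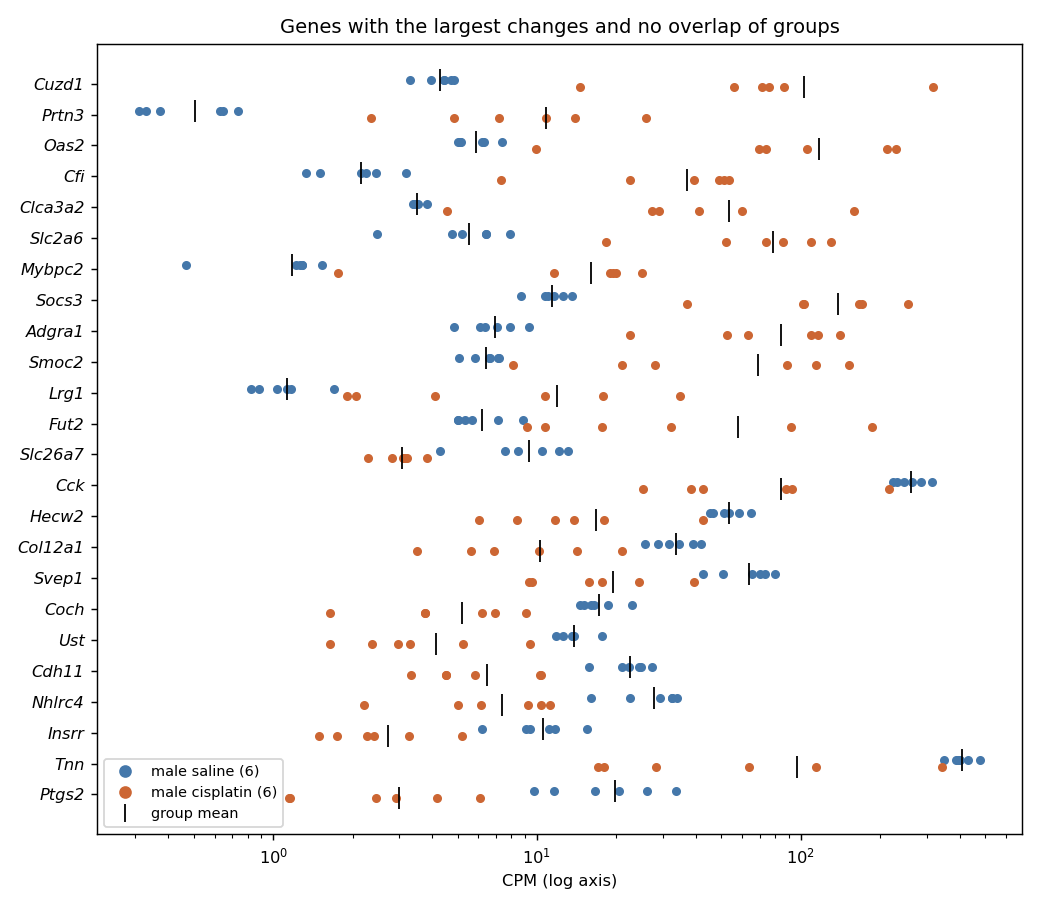
Each row is a gene, points are CPM in the 6 male saline and the 6 male cisplatin libraries on a log axis, and vertical ticks are group means. Oas2 lies between 5.01 and 7.37 CPM in saline and between 9.95 and 229 CPM in cisplatin libraries, and Ptgs2 between 9.73 and 33.6 CPM and between 1.15 and 6.06 CPM.

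Outside the injury and hemoglobin lists, the largest rises of mean CPM were those of Bcam, Ly6e, Gm43305, Tsc22d1 and Cep85. Bcam, on chromosome 7, encodes a laminin-binding adhesion molecule of epithelial cells and was at 1443, 1586 and 1791 CPM in saline and 2301, 3228 and 5542 CPM in cisplatin libraries (2.16-fold, log2 fold change 1.11 ± 0.20 SE, adjusted p = 0.00502). Ly6e, on chromosome 15, encodes a membrane-anchored protein of the LY6 family and was at 1018, 1149.8 and 1327 CPM in saline and 1406, 2469 and 3979 CPM in cisplatin libraries (2.24-fold, log2 fold change 1.16 ± 0.21 SE, adjusted p = 0.0057). Both were without overlap of the groups. Cep85, a centrosomal protein gene on chromosome 4, was at 186, 328 and 343 CPM in saline and 493, 1319.5 and 2577 CPM in cisplatin libraries (4.63-fold, log2 fold change 2.21 ± 0.35 SE, adjusted p = 0.00353). Gm43305 (2.29-fold) and Tsc22d1 (4.67-fold), the latter a transcriptional regulator of the TSC22 family, overlapped between groups and were not called with the tubule covariate.

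Outside the same lists, the largest falls of mean CPM were those of Igfbp5, Hsph1, Plat, Cxcl12 and Tns3. Egf, which is on the injury list, fell from a mean of 1092 CPM to 256 CPM (log2 fold change -2.09 ± 0.52 SE, adjusted p = 0.0208). Igfbp5, on chromosome 1, encodes a binding protein of insulin-like growth factors and was at 2964, 3663 and 4656 CPM in saline and 309, 1044 and 3476 CPM in cisplatin libraries (2.87-fold lower, log2 fold change -1.52 ± 0.45 SE, adjusted p = 0.038). Cxcl12, on chromosome 6, encodes a chemokine made by stromal cells and was at 598, 690.0 and 819 CPM in saline and 137, 267 and 551 CPM in cisplatin libraries (2.41-fold lower, log2 fold change -1.27 ± 0.28 SE, adjusted p = 0.0124), with all cisplatin libraries under all saline libraries. Plat, the gene of tissue plasminogen activator, was 2.30-fold lower, the chaperone gene Hsph1 2.01-fold and Tns3, which encodes the adhesion protein tensin 3, 1.59-fold. All 5 lost the call with the tubule covariate (adjusted p from 0.0689 to 0.141), and Igfbp5, Hsph1, Plat and Tns3 were also lost in 10 or more of the other alternatives. In each of those 4 genes cisplatin replicate 6 lay within the saline range (3476, 1211, 786 and 1017 CPM for Igfbp5, Hsph1, Plat and Tns3).

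The genes were then described by class. Of the 76 classes, which hold 3542 of the genes tested, 35 had a share of higher genes above that of all genes and 43 a share of lower genes above it. At least 20 tested members and 2 times or more the share of all genes in either direction marked 32 classes. Since the classes were picked by those counts, their shares are a description without a test. Symbols set the classes, so a class can hold a gene that shares only the symbol, such as the kinase gene Bmp2k beside the BMP ligands, and some genes stand in more than 1 class.

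**Figure D3:**
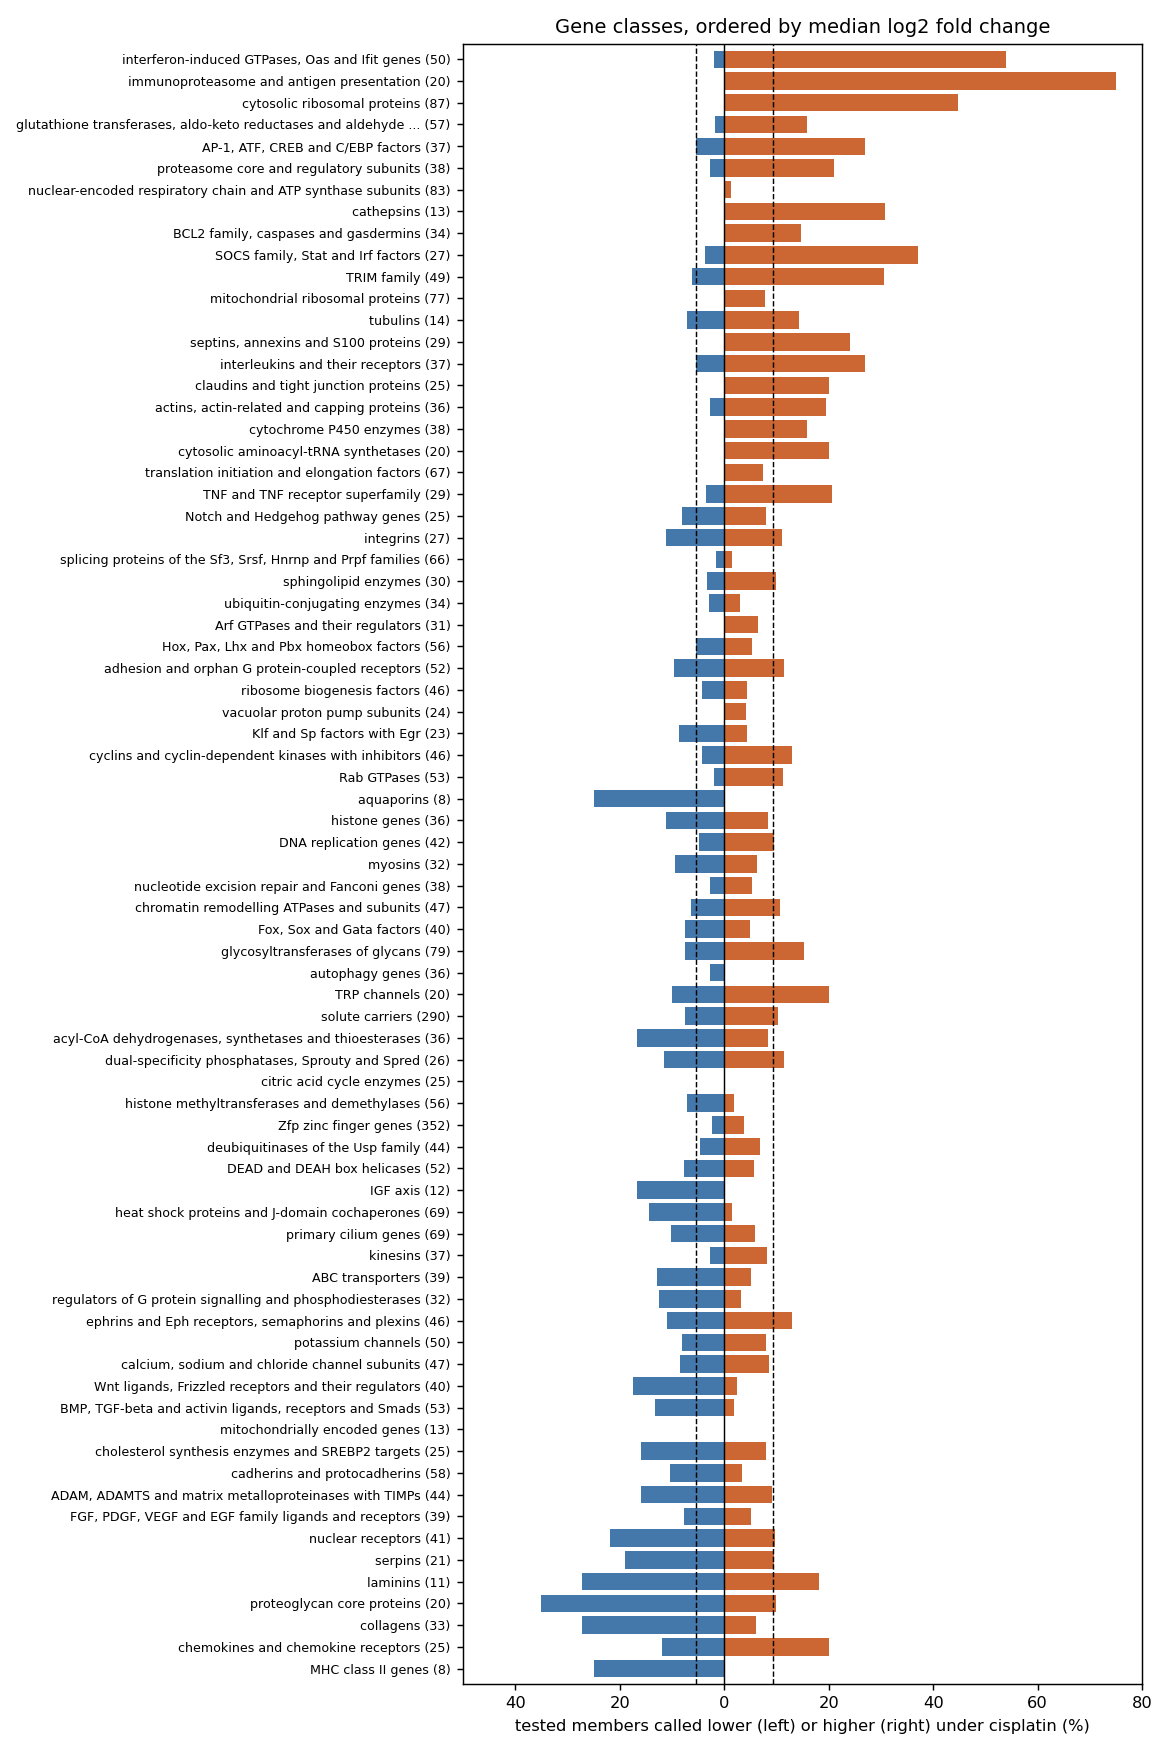
Bars give, for gene classes (number of tested members in brackets), the percentage called higher (right) and lower (left) under cisplatin, ordered by the median log2 fold change, with dashed lines at the shares of all genes tested (9.3% and 5.34%). Antigen presentation, interferon-induced and ribosomal protein genes reach farthest to the right, proteoglycans, collagens and laminins farthest to the left.

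Genes of antigen presentation and of the interferon response had the largest shares of members higher. Interferons are cytokines that act through JAK kinases, STAT factors and interferon regulatory factors to raise antiviral genes, and the immunoproteasome and peptide transporters, raised by the same route, supply peptides to MHC class I. Of 20 antigen presentation genes tested, 15 were higher and 0 lower (75.0% against 9.3% of all genes), with a median log2 fold change of 0.96. Of 50 interferon-induced GTPase, Oas and Ifit genes, 27 were higher and 1 lower, with a median of 0.96. Of 27 SOCS, STAT and IRF genes with the JAK kinases, 10 were higher and 1 lower (median 0.22), and of 49 TRIM genes, a family of ubiquitin ligases with several antiviral members, 15 and 3 (median 0.22). Leaving out 1 library at a time gave 13 to 16, 20 to 32, 9 to 11 and 9 to 19 higher genes in the 4 classes, the lowest TRIM count being that without cisplatin replicate 2. With the tubule covariate 7, 5, 6 and 2 genes were higher.

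Averaged over the genes of the interferon-induced class, the log2 difference from the saline mean was 1.79, 1.22, 0.70, 0.66, 0.59 and 0.02 in cisplatin replicates 1 to 6. It ran from -0.33 to 0.16 in saline libraries. For antigen presentation the 6 cisplatin values were 1.37, 1.10, 1.04, 0.67, 0.85 and 0.13, against -0.20 to 0.11. Replicate 6 was therefore within the saline range in the first class and just above it in the second.

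Promoters of 3 of the called interferon-induced genes are shown because they carry the recognition sequence of interferon regulatory factors and STAT complexes, the interferon-stimulated response element. They run from 250 bases before to 50 bases after the annotated start (RefSeq, build GRCm38.p6, 5′ to 3′ along the gene's strand), and capitals mark matches on either strand to GAAA, any 2 bases and GAAA again. Igtp (chr11:58199306-58199605, plus strand) has 1 match, Isg15 (chr4:156200769-156201068, minus strand) 3 matches that run into each other, and Gbp2 (chr3:142620413-142620712, plus strand) 1 match on the opposite strand.
Igtp: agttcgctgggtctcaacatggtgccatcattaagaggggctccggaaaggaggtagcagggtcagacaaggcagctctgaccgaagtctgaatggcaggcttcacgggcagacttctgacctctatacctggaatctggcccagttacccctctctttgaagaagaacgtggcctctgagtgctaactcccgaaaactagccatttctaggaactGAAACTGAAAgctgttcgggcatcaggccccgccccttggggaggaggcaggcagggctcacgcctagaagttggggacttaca
Isg15: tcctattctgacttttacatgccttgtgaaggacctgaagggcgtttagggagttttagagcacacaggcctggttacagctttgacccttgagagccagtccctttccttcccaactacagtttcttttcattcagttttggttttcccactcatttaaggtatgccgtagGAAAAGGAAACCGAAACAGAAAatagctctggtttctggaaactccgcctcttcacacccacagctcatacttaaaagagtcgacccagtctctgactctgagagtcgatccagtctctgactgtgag
Gbp2: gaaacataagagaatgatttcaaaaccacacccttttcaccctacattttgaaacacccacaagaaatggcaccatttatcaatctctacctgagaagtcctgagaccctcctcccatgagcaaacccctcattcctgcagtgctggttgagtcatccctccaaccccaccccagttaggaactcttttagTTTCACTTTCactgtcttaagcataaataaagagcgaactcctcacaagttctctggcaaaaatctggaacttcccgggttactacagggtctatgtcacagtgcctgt

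Igtp encodes an immunity-related GTPase and was at 8.97, 11.8 and 12.7 CPM in saline and 14.2, 25.4 and 46.4 CPM in cisplatin libraries (2.49-fold, log2 fold change 1.32 ± 0.22 SE, adjusted p = 0.00418), with no overlap of the groups. It overlaps Irgm2, another such gene, on the same strand (a mean of 30.1 CPM in saline and 50.5 CPM in cisplatin libraries, adjusted p = 0.0104). Isg15, a ubiquitin-like modifier gene, was at 4.12, 6.13 and 7.81 CPM in saline and 6.27, 35.3 and 127 CPM in cisplatin libraries (log2 fold change 2.96 ± 0.57 SE, adjusted p = 0.00719), and Gbp2, a guanylate-binding protein gene, at 14.2, 18.2 and 21.4 CPM in saline and 20.4, 54.3 and 142 CPM in cisplatin libraries (log2 fold change 1.92 ± 0.37 SE, adjusted p = 0.00754). In both, cisplatin replicate 6 lay within the saline range and the other 5 libraries above it.

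The motif was counted in the promoters of the 11860 tested genes with an entry. It occurred in 3.02% of them, in 5.84% of those called higher (66 of 1131) and in 3.04% of those called lower (20 of 657), and in 3.49% of all 27025 promoters of the table. In the interferon-induced class 24 of 35 promoters held it, and 11 of the 18 called higher. Outside that class and the antigen presentation class, 52 of 329 genes with the motif were higher (15.8%), against 9.54% of all tested genes with a promoter. The AP-1 site TGANTCA stood in 5.13% of tested promoters, 7.43% of the higher and 5.78% of the lower, and the gamma-activated site TTCNNNGAA in 6.96%, 9.02% and 6.09%. The kappa B site stood in 1.19%, 1.41% and 1.22%, and the sterol element TCACNCCAC in 1.16%, 0.884% and 0.609%. For the cyclic AMP response element the shares were 3.04%, 2.30% and 1.98%, for the antioxidant element TGACNNNGC 14.7%, 13.97% and 12.6%, and for the tonicity element 1.07%, 1.41% and 1.22%. Matches of different motifs can overlap in a promoter, and a match is a string of letters, not a measured site.

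Individual genes of these classes rose in most cisplatin libraries. Psmb8, an immunoproteasome subunit gene on chromosome 17, was at 6.83, 7.74 and 9.36 CPM in saline and 9.01, 43.5 and 59.1 CPM in cisplatin libraries (4.72-fold, log2 fold change 2.24 ± 0.35 SE, adjusted p = 0.00301), its neighbour Psmb9 at 5.70, 6.24 and 7.11 CPM in saline and 7.03, 24.5 and 31.2 CPM in cisplatin libraries (3.50-fold, log2 fold change 1.81 ± 0.26 SE, adjusted p = 0.00235), and Psmb10, on chromosome 8, at 26.6, 27.9 and 31.1 CPM in saline and 31.9, 95.6 and 147 CPM in cisplatin libraries (3.20-fold, log2 fold change 1.68 ± 0.26 SE, adjusted p = 0.00281). Psmb9 overlaps the peptide transporter gene Tap1 on the opposite strand, which was called as well (log2 fold change 1.63 ± 0.32 SE, adjusted p = 0.00779). Ifi47, an immunity-related GTPase gene, was at 4.62, 5.73 and 7.69 CPM in saline and 9.48, 33.3 and 68.1 CPM in cisplatin libraries (5.88-fold, log2 fold change 2.56 ± 0.34 SE, adjusted p = 0.00126). Irf1, a transcription factor gene of the interferon response on chromosome 11, was at 37.6, 43.7 and 53.4 CPM in saline and 60.6, 86.4 and 121 CPM in cisplatin libraries (2.03-fold, log2 fold change 1.02 ± 0.14 SE, adjusted p = 0.00185). Jak3, a cytokine receptor kinase gene, was at 71.1, 77.4 and 87.1 CPM in saline and 105, 152 and 202 CPM in cisplatin libraries (1.95-fold, log2 fold change 0.96 ± 0.14 SE, adjusted p = 0.00238). In Irf1 and Jak3 even cisplatin replicate 6 exceeded every saline library (60.6 and 105 CPM). Trim30a was 3.94-fold higher (log2 fold change 1.98 ± 0.39 SE, adjusted p = 0.00754), and it, Trim12a and the Oas1 genes have near-identical neighbours between which reads may be split. MHC class II genes, which present peptides taken up by immune cells, had 0 of 8 higher and 2 lower (median -1.13; 6 lower without cisplatin replicate 6).

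Cytokine and receptor classes were mixed. Among interleukins and their receptors 10 of 37 were higher and 2 lower. Il18r1, the receptor of interleukin 18, led them at 7.77, 8.83 and 10.5 CPM in saline and 14.6, 58.4 and 98.8 CPM in cisplatin libraries (6.36-fold, log2 fold change 2.67 ± 0.32 SE, adjusted p = 0.000599), with no overlap, and was followed by the interleukin 17 receptor genes Il17re (1.72-fold) and Il17rc (1.84-fold). Of 29 TNF and TNF receptor genes 6 were higher and 1 lower, led by Ltbr (1.34-fold) and Tnfsf10 (2.20-fold), while Tnfsf15 was 2.56-fold lower. With the tubule covariate 0 genes of this class were higher, and 3 were without any 1 saline library or cisplatin replicate 1 or 2. Of 25 chemokine and chemokine receptor genes 5 were higher and 3 lower, and the median was -0.60. Cxcl10, Ccl28, Cxcl16 and Ccl6 were among the 5 (2.85, 3.24, 1.86 and 2.83-fold), and Cxcl12, its scavenger receptor Ackr3 (2.45-fold lower) and Cxcl1 (2.27-fold lower) were the 3.

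Transcription factors of the AP-1, ATF, CREB and C/EBP families, many of them rapidly induced by stress, included 10 of 37 higher and 2 lower (median 0.31). Junb, on chromosome 8, was at 70.5, 108 and 134 CPM in saline and 141, 221 and 461 CPM in cisplatin libraries (2.34-fold, log2 fold change 1.22 ± 0.25 SE, adjusted p = 0.00958) and Jund, on the same chromosome, 2.03-fold higher (log2 fold change 1.02 ± 0.20 SE, adjusted p = 0.00719). Junos, the transcript opposite to Jun, was 3.22-fold higher, while Jun itself was not called (a mean of 64.6 CPM in saline and 96.4 CPM in cisplatin libraries, adjusted p = 0.0701). Nuclear receptors, the ligand-regulated transcription factors, went mostly the other way, with 4 of 41 higher and 9 lower (median -0.28). The glucocorticoid receptor gene Nr3c1, on chromosome 18, was at 127, 141 and 159 CPM in saline and 66.1, 75.3 and 126 CPM in cisplatin libraries (1.67-fold lower, log2 fold change -0.74 ± 0.15 SE, adjusted p = 0.01), and the thyroid hormone receptor gene Thrb at 22.2, 23.9 and 28.6 CPM in saline and 13.1, 14.8 and 19.6 CPM in cisplatin libraries (1.57-fold lower, log2 fold change -0.65 ± 0.13 SE, adjusted p = 0.00816). Neither overlapped between groups. Esrrg and Rarb were 1.88 and 2.32-fold lower, and Rara was 1.58-fold higher. With the tubule covariate 3 factors of the first class were higher and 0 nuclear receptors lower. The former numbered 6 without saline replicate 1 or 6, and the latter 3, 4, 5, 4, 3 and 4 without saline replicates 1, 4 and 5 and cisplatin replicates 1, 2 and 3. Rarb was lost without saline replicate 1, 2 or 4 or cisplatin replicate 2. The 352 Zfp zinc finger genes, the largest class, had 13 higher (3.69%) and 8 lower (2.27%), below the shares of all genes. Without cisplatin replicate 6 they had 18 and 44.

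Genes of protein synthesis and turnover differed in degree. Of 87 cytosolic ribosomal protein genes 39 were higher and 0 lower, and 86 of the 87 fold changes were above 0 (median log2 0.62). Rpl10a was at 212, 218 and 221 CPM in saline and 210.4, 355 and 614 CPM in cisplatin libraries (1.70-fold, log2 fold change 0.77 ± 0.19 SE, adjusted p = 0.0213) and Rps19 at 204, 218 and 224 CPM in saline and 228, 331 and 688 CPM in cisplatin libraries (1.76-fold, log2 fold change 0.82 ± 0.21 SE, adjusted p = 0.0241). Over the class, the mean log2 difference from saline was 0.43, 0.42, 0.66, 0.19, 1.40 and 0.04 in cisplatin replicates 1 to 6, highest in replicate 5. It was -0.03 to 0.08 in saline libraries. The number called was 76 without replicate 6 and 52 without replicate 5, and 1 with the tubule covariate. Without saline replicates 1 to 6 it was 2, 6, 4, 1, 4 and 7, and without cisplatin replicates 1, 2 and 3 it was 16, 10 and 10. Ribosomal protein genes have many near-identical pseudogene copies, between which the counting may split reads. Proteasome subunits other than those of the immunoproteasome are included in a class of 38 with 8 higher and 1 lower (median 0.30; 17 higher without cisplatin replicate 6, 13 without replicate 4, and 4 or 5 without any 1 of the other libraries except cisplatin replicate 5), among them Psma7 (1.59-fold). Of 20 cytosolic aminoacyl-tRNA synthetase genes 4 were higher, led by Vars (2.08-fold, log2 fold change 1.06 ± 0.18 SE, adjusted p = 0.00418). Of 69 heat shock and J-domain genes 1 was higher and 10 lower (14.5% against 5.34% of all genes), with a class median of -0.09, among them Hspa4 at 422, 476 and 502 CPM in saline and 239, 285 and 436 CPM in cisplatin libraries (1.58-fold lower, log2 fold change -0.66 ± 0.14 SE, adjusted p = 0.0103) and Hspa4l at 238, 272 and 339.7 CPM in saline and 42.1, 90.9 and 265 CPM in cisplatin libraries (2.54-fold lower, log2 fold change -1.34 ± 0.33 SE, adjusted p = 0.0193). Cisplatin replicate 6 lay within the saline range in Hspa4 and Hspa4l (436 and 265 CPM), and 1 gene of the class was lower with the tubule covariate. Without 1 library at a time between 4 and 15 were lower, with 4 to 6 when saline replicate 1, 3, 4, 5 or 6 or cisplatin replicate 2 or 3 was left out.

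Epithelial junction and membrane genes rose in part. Of 25 claudin and tight junction genes, which seal the space between epithelial cells, 5 were higher and 0 lower, and with the tubule covariate 4 were higher. Cldn7, on chromosome 11, was at 82.3, 92.4 and 97.7 CPM in saline and 99.2, 264 and 344 CPM in cisplatin libraries (2.58-fold, log2 fold change 1.37 ± 0.24 SE, adjusted p = 0.00532), Cldn4 at 259.9, 349 and 395 CPM in saline and 424, 615 and 766 CPM in cisplatin libraries (1.76-fold, log2 fold change 0.81 ± 0.15 SE, adjusted p = 0.0059) and Cldn3 at 29.1, 33.9 and 39.0 CPM in saline and 43.9, 70.7 and 103 CPM in cisplatin libraries (2.11-fold, log2 fold change 1.07 ± 0.18 SE, adjusted p = 0.00418), all 3 without overlap. Of 29 septin, annexin and S100 genes 7 were higher and 0 lower. The calcium-binding S100a11, on chromosome 3, was at 340.0, 359.8 and 389 CPM in saline and 416, 767 and 1180.3 CPM in cisplatin libraries (2.12-fold, log2 fold change 1.08 ± 0.19 SE, adjusted p = 0.00532) and was followed by S100a14, S100a16 and S100a10 on the same chromosome (2.39, 1.59 and 1.71-fold). Of 36 actin and actin-related genes 7 were higher and 1 lower, led by Arpc1b, a subunit of the Arp2/3 complex that branches actin filaments, at 125, 138 and 160.3 CPM in saline and 163, 388 and 445 CPM in cisplatin libraries (2.43-fold, log2 fold change 1.282 ± 0.21 SE, adjusted p = 0.00375). With the tubule covariate 3 genes of the septin, annexin and S100 class and 1 of the actin class were higher. Without cisplatin replicate 6 the 3 classes had 8, 11 and 12 higher genes, and without cisplatin replicate 2 the latter 2 had 4 and 2. The actin count was 1, 4, 1, 1, 1 and 2 without saline replicates 1 to 6 and 4, 3 and 4 without cisplatin replicates 1, 3 and 5.

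Collagen and proteoglycan genes had more members lower than higher, although most did not pass the test. Of 33 collagen genes 9 were lower (27.3% against 5.34% of all genes) and 2 higher, and of 20 proteoglycan core proteins 7 and 2. Their medians were -0.51 and -0.47. Col15a1 was at 10.7, 19.6 and 27.6 CPM in saline and 4.56, 7.37 and 9.77 CPM in cisplatin libraries (2.66-fold lower, log2 fold change -1.41 ± 0.23 SE, adjusted p = 0.00388) and Col6a3 at 34.8, 37.1 and 39.3 CPM in saline and 10.8, 13.3 and 27.05 CPM in cisplatin libraries (2.23-fold lower, log2 fold change -1.15 ± 0.22 SE, adjusted p = 0.00726), both without overlap. Col3a1, a fibrillar collagen gene, was at 14.8, 31.5 and 50.2 CPM in saline and 3.11, 7.74 and 19.8 CPM in cisplatin libraries (3.58-fold lower, log2 fold change -1.84 ± 0.40 SE, adjusted p = 0.0117). The 2 higher collagen genes were Col13a1 (3.74-fold) and Col18a1 (1.35-fold), which encode a transmembrane and a basement membrane collagen, and Col18a1 lost its call without saline replicate 1 or 5 or cisplatin replicate 2. Among proteoglycans Ogn was 2.77-fold, Aspn 2.86-fold and Gpc6 4.48-fold lower. Sdc1, the syndecan of epithelial cells, stood on the other side at 28.2, 30.2 and 32.8 CPM in saline and 33.2, 131 and 309 CPM in cisplatin libraries (4.72-fold, log2 fold change 2.24 ± 0.37 SE, adjusted p = 0.00388), with cisplatin replicate 6 at 33.2 CPM just above the highest saline library.

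For matrix proteases, adhesion receptors and secreted signals, the shares higher (9.09%, 11.1%, 2.50% and 1.89% for the 4 classes that follow) were near or below the 9.3% of all genes, and the shares lower (15.9%, 11.1%, 17.5% and 13.2%) stood beside 5.34%. Of 44 ADAM, ADAMTS, matrix metalloproteinase and TIMP genes 7 were lower and 4 higher, with Adam22, Adam12 and Adamtsl1 1.81, 3.24 and 2.30-fold lower and Adam15 1.57-fold higher. Of 27 integrins 3 were higher (Itga2b, Itgb4 and Itga2) and 3 lower (Itga1, Itga8 and Itgb2). Of 40 Wnt pathway genes 7 were lower and 1 higher. Wnt5a was at 140.2, 166 and 186 CPM in saline and 39.0, 72.0 and 144 CPM in cisplatin libraries (2.11-fold lower, log2 fold change -1.08 ± 0.26 SE, adjusted p = 0.0171), Wnt11 was 3.27-fold and the receptor gene Fzd1 1.77-fold lower. Of 53 BMP, TGF-beta and activin pathway genes 7 were lower and 1 higher, among them the latent TGF-beta binding protein genes Ltbp4 (2.35-fold, log2 fold change -1.23 ± 0.22 SE, adjusted p = 0.00513) and Ltbp1 (2.32-fold) and the ligand genes Bmp2 (2.26-fold) and Gdf7 (3.77-fold), while the 1 higher was Gdf15. With the tubule covariate 2 collagen, 0 proteoglycan, 1 Wnt and 2 BMP and TGF-beta genes were lower. Without cisplatin replicate 6 the lower genes of these 4 classes numbered 17, 8, 13 and 9, and without saline replicate 4 they numbered 4, 4, 5 and 4. Collagen genes lower numbered 5 without saline replicate 1 or 6 or cisplatin replicate 2 or 3, proteoglycans 4 without cisplatin replicate 2, and BMP and TGF-beta genes 4 without saline replicate 1 or 5. The protease class had 3 and 4 lower without saline replicates 4 and 6.

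Other signalling classes had shares higher of 13.04%, 3.12% and 11.5% beside the 9.3% of all genes, and shares lower of 10.9%, 12.5% and 11.5% beside 5.34%, in the order given here. Of 46 ephrin, semaphorin and plexin genes 6 were higher and 5 lower. Sema6b, a guidance ligand gene, was at 10.5, 11.7 and 12.5 CPM in saline and 15.7, 21.7 and 29.0 CPM in cisplatin libraries (1.98-fold, log2 fold change 0.99 ± 0.14 SE, adjusted p = 0.00208), with no overlap, and Sema3d was 2.36-fold lower, a call lost without cisplatin replicate 2 or any saline library but replicate 3. Among 32 genes of G protein regulators and phosphodiesterases 1 was higher and 4 lower, including Rgs5, a marker of pericytes (1.94-fold), and the cyclic nucleotide phosphodiesterase gene Pde3a (2.21-fold). Dual-specificity phosphatases with Sprouty and Spred genes had 3 of 26 in each direction, with Dusp8 2.16-fold higher and Spry4 1.89-fold lower.

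Among transport and metabolism genes, of 290 solute carriers 30 were higher (10.3%) and 22 lower (7.59%), near the shares of all genes. Beside Slc2a6 they included Slc25a28, a mitochondrial iron carrier gene (2.18-fold, log2 fold change 1.13 ± 0.18 SE, adjusted p = 0.00385), and Slc39a1, a zinc importer gene (1.79-fold, log2 fold change 0.84 ± 0.14 SE, adjusted p = 0.00432). Of 20 TRP channels 4 were higher and 2 lower. The calcium channel gene Trpv6 was at 2.55, 3.07 and 4.71 CPM in saline and 22.4, 72.2 and 97.7 CPM in cisplatin libraries (log2 fold change 4.25 ± 0.35 SE, adjusted p = 2.61e-05) and its neighbour Trpv5 at 0.0413, 0.0524 and 0.362 CPM in saline and 1.01, 4.62 and 15.2 CPM in cisplatin libraries, both without overlap, and Trpv4 was 1.43-fold and Trpm6 1.82-fold higher. At such saline levels Trpv5 met the count filter through the cisplatin libraries, so the filter favoured its rise and its separation. ABC transporters had 2 of 39 higher (Abcc8 and Abcc3) and 5 lower (Abca9, Abca8a, Abca13 and Abcc9 among them). These were 5.13% and 12.8% of the class, beside the same 9.3% and 5.34%. Of 25 cholesterol synthesis and SREBP2 target genes 2 were higher (8.0% against 9.3% of all genes) and 4 lower (16.0% against 5.34%). Insig1, Idi1 and Hmgcs1 were among those lower, from 1.35 to 1.99-fold, and Pmvk and Tm7sf2 were higher. Idi1 lost its call without saline replicate 1 or 4, and Hmgcs1 without saline replicate 1, 4 or 6 or cisplatin replicate 1 or 2. Of 36 acyl-CoA genes 6 were lower (16.7%) and 3 higher (8.33%), the thioesterase genes Acot1 and Acot2 being 2.27 and 2.34-fold higher. Serpins had 4 of 21 lower (19.0%) and 2 higher (9.52%), with the collagen chaperone gene Serpinh1 1.68-fold lower. Histone genes had 4 of 36 lower (11.1%) and 3 higher (8.33%). The 4 were replication-dependent histone genes, whose transcripts mostly lack a poly(A) tail, and the 3 (H2afy, H2afy2 and H2afj) encode variants. In the acyl-CoA, serpin and histone classes the shares higher were near the 9.3% of all genes, and the shares lower stood beside 5.34%. Nuclear genes of the respiratory chain had 1 of 83 called higher and 0 lower, the mitochondrially encoded genes 0 of 13 in either direction, and citric acid cycle enzymes 0 of 25. The median log2 fold changes of these classes were 0.27, -0.21 and -0.07. Fold changes above 0 numbered 71 of 83, 3 of 13 and 8 of 25.

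Genomic span ran across the classes. The 16664 genes with a span in GENCODE release 21 of the mouse annotation (GRCm38) were split into 5 groups of equal size by the distance from first to last base. From the shortest group (up to 5.41 kb) to the longest (above 62.6 kb), the share called higher was 12.4%, 13.02%, 9.69%, 6.78% and 4.65%, and the share called lower 1.83%, 2.76%, 3.87%, 5.37% and 12.96%. The median log2 fold change went from 0.22 through 0.13, 0.03 and -0.06 to -0.15. Among protein-coding genes the shortest and longest groups had 16.2% and 4.49% higher and 2.12% and 13.4% lower. Without genes of the cell marker lists and the collagen, laminin, proteoglycan and protease classes these were 16.1%, 4.45%, 1.92% and 12.97%.

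Read per library as a difference from the saline mean, the median of the longest minus that of the shortest span group was -0.08, -0.32, -0.47, -0.20, -0.90 and -0.16 in cisplatin replicates 1 to 6 and between -0.08 and 0.07 in saline libraries. Cisplatin replicate 1 lay within the saline range and replicate 5 had the largest difference. Over the group the difference was -0.37, and -0.24 without replicate 5, which moves it by more than 1.5 times, with 12.3% and 5.79% higher and 2.49% and 12.8% lower in the shortest and longest groups. The part of RNA quality or of fragment loss in it was not tested. By biotype, 9.43% of 14124 protein-coding genes were higher and 5.99% lower, against 10.8% and 3.13% of 511 long intergenic RNAs, 8.44% and 1.49% of 604 antisense genes and 6.15% and 2.42% of 537 pseudogenes.

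**Figure D4:**
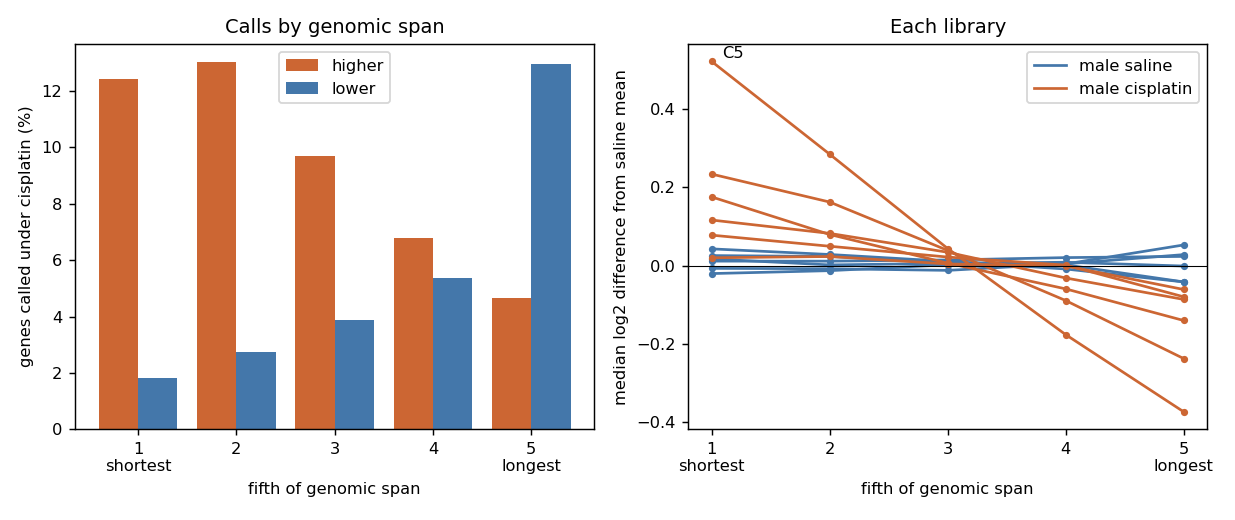
The left panel gives the percentage of genes called higher and lower in each of the 5 groups of genomic span, and the right panel each library's median log2 difference from the male saline mean by group. Calls lower rise from 1.83% to 12.96% with span, and cisplatin replicate 5 (C5) has the steepest line, with -0.90 between the longest and the shortest group.

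Markers of cell types moved with several of these groups. In bulk tissue, fewer cells of a type and less RNA per cell cannot be told apart. Of 10 medullary interstitium markers 8 were tested (Has2 and Lum were not), 5 fell and 0 rose. The summed level of all 10 was 793 to 947 CPM in saline and 115 to 724 CPM in cisplatin libraries, without overlap. Pdgfra, the defining receptor gene of interstitial fibroblasts, was at 269.8, 282 and 321 CPM in saline and 34.7, 98.5 and 217 CPM in cisplatin libraries (log2 fold change -1.38 ± 0.33 SE, adjusted p = 0.0181). The mean log2 CPM of the 8 markers was 3.93, 3.49, 3.15, 4.92, 4.38 and 5.11 in cisplatin replicates 1 to 6. It was lowest in replicates 2 and 3, in which the collagen class also had its lowest mean log2 differences from saline (-0.69 and -1.03). The class was close to the first of these in replicates 1 and 5 (-0.64 and -0.63). The marker list and the class share Col1a1, Col1a2 and Col3a1, so this match is partly built in. The part of the shift in interstitial markers in the falls of collagen, proteoglycan, Wnt and chemokine genes was not tested.

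Of 9 endothelial markers 1 fell, the receptor gene Tek (log2 fold change -0.77 ± 0.22 SE, adjusted p = 0.0342), and the list summed to 2217 to 2655 and 794 to 2734 CPM. The median log2 fold change of the list was -0.54. Its mean log2 CPM was 7.39 to 7.49 in saline libraries and 7.00, 6.52, 6.12, 7.19, 7.01 and 7.58 in cisplatin replicates 1 to 6. Cisplatin replicates 1 to 5 thus lay below the saline range and replicate 6 above it. Of 11 macrophage and monocyte markers 2 rose and 2 fell. Cd14 was at 17.8, 22.4 and 26.0 CPM in saline and 36.1, 98.5 and 150.2 CPM in cisplatin libraries (log2 fold change 2.20 ± 0.27 SE, adjusted p = 0.000831) and Cd68 rose as well (log2 fold change 1.91 ± 0.36 SE, adjusted p = 0.00677), whereas Adgre1, which encodes the macrophage antigen F4/80, fell (log2 fold change -1.50 ± 0.42 SE, adjusted p = 0.0304) and so did the mannose receptor gene Mrc1 (log2 fold change -1.25 ± 0.33 SE, adjusted p = 0.0238). The list summed to 101.4 to 193 and 139.9 to 233 CPM. Of 8 urothelial markers 2 rose (Upk3a and Upk1b), with sums of 221 to 284 and 258 to 528 CPM.

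Of the tubule lists, proximal tubule markers had 0 of 16 called in either direction, thick ascending limb markers 1 of 6 lower (Egf) and intercalated cell markers 2 of 6 tested lower (Insrr and Slc4a1). The collecting duct list had 2 of 10 lower (Aqp3 and Aqp4) and the thin limb list 1 of 8 higher (Cldn4). In the same order, the median log2 fold changes of these lists were -0.52, -0.86, -0.12, -0.06 and 0.05. The 5 erythroid markers all fell, from 153 to 366 CPM in sum to 4.45 to 14.4 CPM, without overlap. Every listed marker, tested or not, had counts in at least 1 male library.

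**Figure D5:**
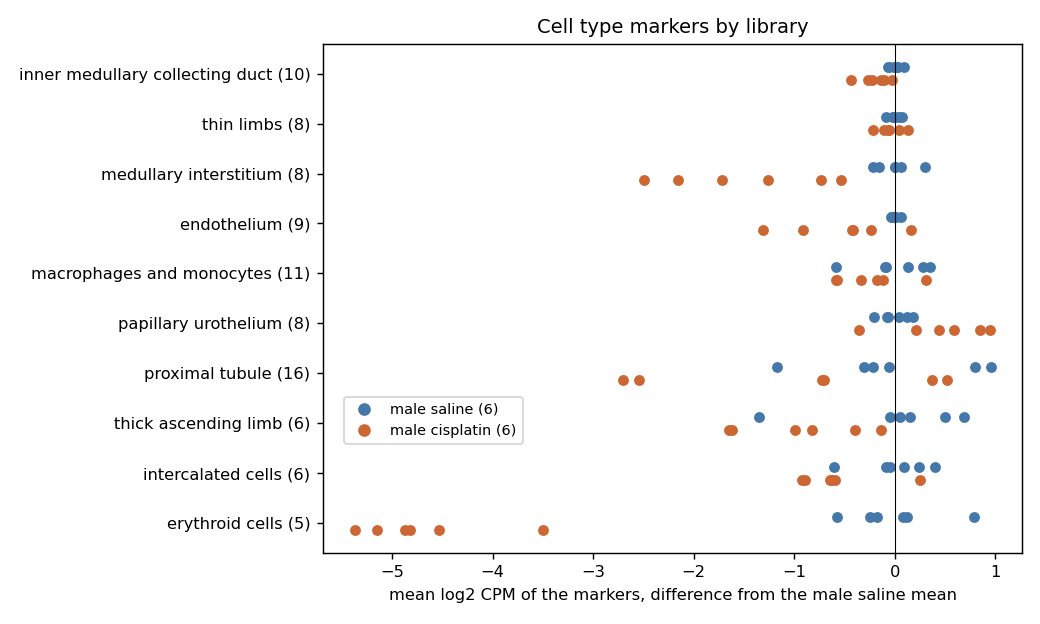
Points give the mean log2 CPM of each marker list (tested markers in brackets) in each male library, as a difference from the male saline mean. Interstitial and erythroid lists separate the groups, and the proximal tubule list is spread in both.

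Female libraries give the same contrast with a saline group of their own. On the same genes, 34 were higher (0.203%) and 13 lower (0.0778%) in 5 female cisplatin against 7 female saline libraries. This female contrast was taken from the fit of all 24 libraries, in which the male contrast gave 2290 higher and 1357 lower genes. The male lists set beside it here are those of the male libraries alone, so the 2 fits differ. Of the 1554 genes higher in males 1527 (98.3%) had a fold change above 0 in females, and 33 were called in both, which is 2.12% of the male and 97.1% of the female list. Of the 893 lower in males 867 (97.1%) were below 0 in females, and 11 were called in both (1.23% and 84.6%). The share of equal signs over all genes tested is not given here, so 98.3% and 97.1% describe the called genes without a background. The median log2 fold change of the male-called genes was 0.39 and -0.38 in females against 0.80 and -0.80 in males, where the male values are those the genes were picked by. The difference of the male and female fold changes was tested as an interaction over all 24 libraries: 0 of 16712 genes (0.0%) passed, with 696 (4.16%) at an unadjusted p under 0.05 and a lowest adjusted p of 0.946. DESeq2 and limma voom also called 0, with 813 and 1507 at an unadjusted p under 0.05. Female fold changes of genes named above were log2 3.09 ± 0.54 (SE) for Oas2, 2.80 ± 0.42 (SE) for Cfi, 2.65 ± 0.47 (SE) for Socs3, 2.37 ± 0.40 (SE) for Slc2a6 and 2.67 ± 0.47 (SE) for Adgra1, all called, and -1.28 ± 0.32 (SE) for Cdh11, -1.96 ± 0.45 (SE) for Ptgs2, -0.59 ± 0.32 (SE) for Col12a1 and -0.58 ± 0.33 (SE) for Coch, none called.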

How the data were processed

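RNA was measured by poly(A)-selected sequencing of mouse kidney inner medulla. The authors deposited 1 table of raw read counts per gene and library. Per the submitters' processing notes, Trim Galore 0.6.7, Subread 2.0.1 with featureCounts, DESeq2 1.28.1 and build mm10 were used. How reads were aligned, the gene models and any use of strand were not given in the sources used here. Columns were matched to samples by name and libraries grouped by the labels. Male cisplatin and saline libraries (6 each) were compared with edgeR 4.0.16 (R 4.3.3): TMM scaling, quasi-likelihood test, Benjamini-Hochberg adjustment, standard errors as the fold change divided by the root of F. CPM are TMM-scaled. The interaction with sex and the female contrast used a fit of all 24 libraries. DESeq2 1.42.0, limma 3.58.1 (voom), other scalings and filters, the tubule covariate, a replicate block and each library left out were alternatives (21 in all). Library totals of 18188482 to 27279102 counts set the counting precision. The fits were tested on simulated counts.

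Genes were named by rule: the 12 largest rises and falls in log2 fold change without overlap at a mean of at least 5 CPM outside a list of known injury, hemoglobin and heme synthesis genes and without provisional gene models, the 5 largest called rises and falls in mean CPM outside that list, and up to 4 called members of each described class and direction. Other genes named beside these, such as overlapping neighbours, markers and further class members, were chosen after their values were seen. The genes taken up, the classes and the lists were chosen with earlier results of these data known. Of the genes kept, 50 had no symbol (0.235% of counts). Some items are not reported here.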

Additional observations from a re-analysis of the deposited data

Results flagged for a closer look

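Among 96 groups of 6 values, 6 held a library at one end that stood apart from the other 5 by Dixon's criterion, which by chance marks about 1 in 20 groups. In saline libraries, the highest log2 CPM of Clca3a2 was 1.97 (replicate 3) and the lowest log2 CPM of Mybpc2 -0.85 (replicate 6). In cisplatin libraries, the lowest log2 CPM of Mybpc2 was 0.89 (replicate 6). The lowest thick ascending limb marker score among saline libraries, a mean log2 CPM, was 7.38 (replicate 2), and the highest intercalated cell score among cisplatin libraries was 5.98 (replicate 3). The share of called genes above the saline range was lowest in cisplatin replicate 6, at 34.4%.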

How the results depend on the processing

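The 1554 higher and 893 lower genes became 2427 and 2061 with limma voom and sample weights, 364 and 84 with the tubule covariate, and 852 to 2402 and 344 to 1838 with 1 library left out. DESeq2 called 2159 and 1481, and the male contrast in all 24 libraries 2290 and 1357. The share of calls that were higher was 63.5%, against 54.1% with voom and 81.2% with the covariate. Replicate numbers did not pair the libraries (correlations of same-numbered deviations from -0.143 to 0.085, and 0 libraries correlated best with their own number), and a replicate block gave 857 higher and 640 lower genes. The cause of these shifts was not tested.

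Of 4743 results of the 226 named genes under an alternative, 4077 kept direction and call, 666 kept direction without the call and 0 reversed. The covariate ended 143 calls, the block 44 and DESeq2 0. Class medians moved by more than the spread in 8 classes. With total counts, autophagy genes had -0.096 and Arf genes 0.0090. With voom, Arf genes had -0.0061 and myosins -0.096. With the covariate, Arf genes had -0.016 and Notch and Hedgehog genes -0.095. Under the replicate block, potassium channels had -0.24. With 1 library left out, medians ran from -0.55 (without cisplatin replicate 5) to -0.19 for serpins, 0.0026 to 0.087 for Arf genes, -0.088 (without cisplatin replicate 5) to 0.041 for myosins and -0.24 (without cisplatin replicate 6) to -0.12 for kinesins. They ran from -0.23 (without cisplatin replicate 5) to 0.057 for aquaporins and from -0.098 (without cisplatin replicate 1) to 0.13 for Notch and Hedgehog genes. Genes of a few counts per library are the least precise at this depth.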
